A study of Homo sapiens with 60 samples.

Results

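H3K27Ac, acetylation of histone H3 at lysine 27, was compared between osimertinib-treated and untreated METTL7A Rescue cells. These are PC9 cells, a human lung adenocarcinoma line, in which METTL7A had been knocked out and a MYC- and FLAG-tagged METTL7A was then overexpressed. Both groups carry the knockout and the overexpressed gene. The promoter that drove it and the number of clones behind the line are not given in the sources used here. The treated cells were grown under osimertinib for 6 to 8 weeks, with a dose that began at 100 nM and was raised, and the others were left untreated. The marks were mapped by CUT&RUN, in which an antibody directs a nuclease to cut and release the chromatin it binds. The data were 2 peak lists, 1 for each treatment, and each list joined 2 replicates. A peak was taken as passing when it lay on chromosomes 1 to 22 and its global IDR was 0.05 or less. The IDR, or irreproducible discovery rate, measures how well the rank of a peak agrees between replicates. The treated list held 12991 passing peaks of 44401 deposited on those chromosomes, and the untreated list held 14177 of 38691. Together they make up 27168 of the 149865 passing peaks in the 24 lists of the series that were analysed.

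H3K27Ac marks active promoters and enhancers and is placed largely by the acetyltransferases p300 and CBP. Osimertinib inhibits mutant EGFR, the receptor tyrosine kinase on which PC9 cells depend, and long exposure with a rising dose selects cells that grow in its presence. METTL7A is a methyltransferase-like protein found at the endoplasmic reticulum and on lipid droplets. RAD21, a core cohesin subunit, and PDS5A, a cohesin regulator, were mapped in the same cells, with IgG as the background control. Wild-type (WT) cells and METTL7A knockout (KO) cells were mapped with and without osimertinib as well. The study asks how chromatin states linked to METTL7A bear on the acquisition of resistance to EGFR inhibitors.

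Each treatment gave 1 list, so no difference between treatments could be tested, and intervals on shares cover counting error only. No source says that the replicates came from separate cultures. Within a list, the −log10 p values of the 2 replicates correlated at a Spearman rho of 0.786 over passing treated peaks and 0.748 over passing untreated peaks, a description of peaks that are not independent of each other. Reads per library are unknown from these files. The IgG lists of Rescue cells held 31 passing peaks in treated and 10 in untreated cells, of 884 and 1036 deposited. Peak lists hold no measure of METTL7A expression, so the knockout and the overexpression were not checked here. At the limit itself the last treated peak inside had a −log10 global IDR of 1.30106 and replicate values of 10.9 and 15.4, and the first outside had 1.30093, 10.8 and 13.5. The last untreated peak inside had 1.301003, 11.3 and 11.2, and the first outside had 1.30089, 11.9 and 10.8. These are the peaks nearest to the limit on each side, so their near equality in strength follows from how they were picked. It does not describe the other peaks over the limit.

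Most H3K27Ac peaks were present in both treatments, and the untreated list was the longer of the pair at the IDR limit. The ratio of treated to untreated passing peaks was 0.916, and passing peaks covered 22845 kb in treated cells, against 26293.9 kb in untreated cells. Over every deposited peak the order turned round, at a ratio of 1.15. Of the treated peaks 9282, or 71.4% (95% Wilson interval 70.7 to 72.2%), overlapped a passing untreated peak by 1 bp or more and are called kept. The other 3709 treated peaks, 28.6%, are called gained. Of the untreated peaks 9164, or 64.6% (63.8 to 65.4%), overlapped a passing treated peak. The other 5013 untreated peaks, 35.4%, are called lost.

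Few of the changed peaks were missing from the other list altogether. Of the gained peaks, 3441 overlapped an untreated peak that had been deposited with a global IDR over 0.05, and 268 (2.06% of treated peaks) overlapped none. Of the lost peaks, 4698 overlapped a deposited treated peak over the limit, and 315 (2.22% of untreated peaks) overlapped none. At most gained and lost peaks the other list thus held a deposited peak over the limit. Whether the signal itself changed there was not tested.

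**Figure D1:**
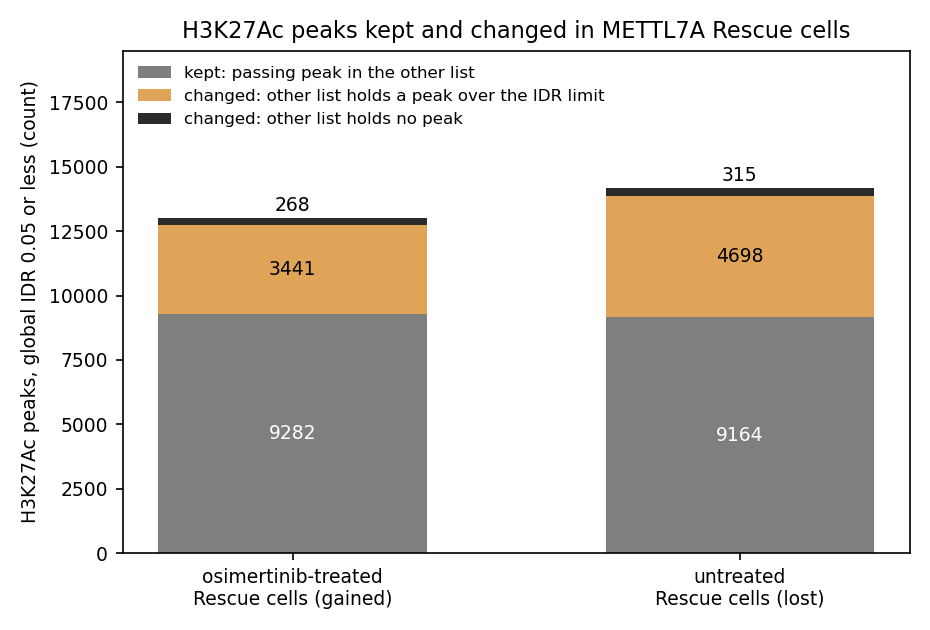
Passing H3K27Ac peaks (global IDR 0.05 or less, chromosomes 1 to 22) of osimertinib-treated and untreated Rescue cells, as counts on the vertical axis, split by what the other list held at the same place. Peaks with no deposited peak in the other list, 268 of the treated and 315 of the untreated, form the thin top band of each bar.

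The regions behind the changed peaks often held strong signal in 1 replicate of the other treatment. At the 3441 gained peaks with an untreated counterpart, the median counterpart had a −log10 p of 7.70 in its lower replicate and 16.3 in its higher one. The IDR is computed from these replicate values, so a gap between them at peaks over the limit follows from the rule and is given as a description. In 2344 of these counterparts, 68.1%, only 1 replicate reached 10.6, the smallest value of any passing untreated peak in either replicate. In 389 both replicates reached it, and in 708 neither did. Lost peaks had the same form: the treated counterpart had a median of 7.85 in its lower replicate and 14.97 in its higher one, and in 2905 of 4698, 61.8%, only 1 replicate reached 10.8, the smallest passing treated value. Among the strongest 100 gained peaks, ranked by the lower replicate value, 78 counterparts had 1 replicate at or over the minimum and 12 had both. Among the strongest 100 lost peaks 68 had 1 and 24 had both.

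The 5 strongest gained peaks all had such a counterpart. They were picked for high values in both treated replicates and for an untreated peak that did not pass. That choice favours unequal untreated values. Coordinates are on GRCh37, and no gene is read from them. The strongest lay at chr17:38803453-38805238 and had replicate values of 133 and 170 in treated cells, against 85.9 and 3.49 in untreated cells. At chr1:228674025-228676810 the values were 140 and 130 in treated cells and 3.80 and 50.9 in untreated cells. At chr1:115299149-115301523 they were 121 and 122 in treated cells and 75.1 and 6.50 in untreated cells. In each of these regions both treated replicates were high, and in untreated cells 1 replicate was high and the other low. The same held at chr20:48726045-48730308, with 120 and 116 in treated cells and 6.10 and 122 in untreated cells. It held too at chr7:46015039-46021067, with 133 and 114 in treated cells and 91.2 and 7.43 in untreated cells. All 5 regions were on a passing RAD21 peak in both treatments, as were 539 of all 3709 gained peaks. Treated peaks on RAD21 had a higher median lower value (25.3) than those off it (17.1), and these 5 were picked for strength. Of the 5 regions, 4 overlapped a deposited IgG peak of some genotype, as did 23.8% of all gained peaks. The regions at chr17:38803453-38805238 and chr1:115299149-115301523 were passing in all 4 H3K27Ac lists of WT and KO cells, as were 4.10% of all gained peaks.

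The treated counterparts of the 5 strongest lost peaks also had unequal replicates, which the same kind of choice favours. At 3 of the 5 both treated values were over the passing minimum of 10.8. At chr20:45982529-45990898, a region of 8370 bp, the values were 159 and 5.49 in treated cells, against 120 and 139 in untreated cells. At chr7:56116656-56121383 they were 146 and 20.3 in treated cells and 119 and 142 in untreated cells. At chr14:75986162-75990897 they were 12.04 and 95.9 in treated cells and 101 and 109 in untreated cells. Both treated values were over 10.8 in the chr7 and chr14 regions and not in the chr20 one. At chr20:52237071-52241438 the values were 4.13 and 83.7 in treated cells and 100.4 and 102 in untreated cells. At chr1:116252970-116258273 they were 94.6 and 14.2 in treated cells and 108 and 98.9 in untreated cells. The chr1 region is the other one with both treated values over 10.8, and in each of the 5 regions 1 treated replicate stood at 83.7 or more. Every region but the chr14 one overlapped a deposited IgG peak of some genotype, as did 20.7% of all lost peaks. Both chr20 regions and the chr7 one overlapped one of Rescue cells, as did 3.83% of all lost peaks. The chr7 region and chr20:52237071-52241438 were passing in all 4 H3K27Ac lists of WT and KO cells, as were 3.45% of all lost peaks.

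**Figure D2:**
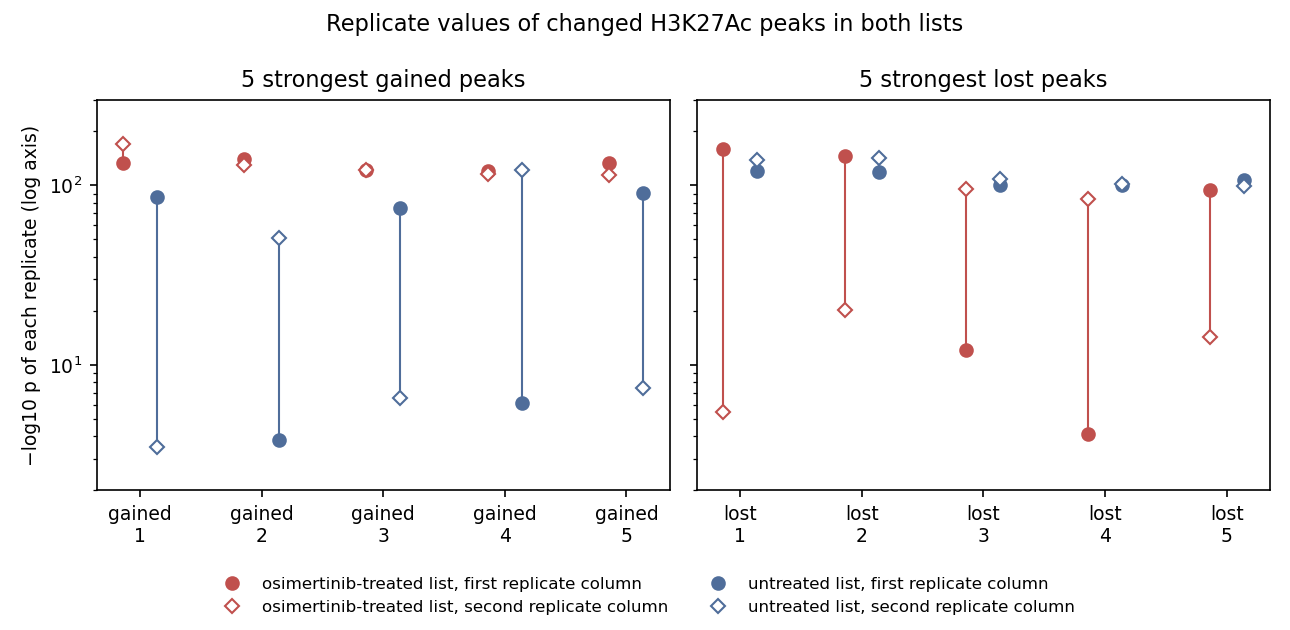
The −log10 p of each replicate (vertical log axis) at the 5 strongest gained and 5 strongest lost H3K27Ac peaks, in the order of the text, with the osimertinib-treated list left of the untreated list in each pair. In all 10 regions the replicates of the list that fails the IDR limit lie further apart than those of the passing list. The choice of strong peaks that fail the limit in the other list favours such a gap. At lost peaks 2, 3 and 5 both treated values are over the passing minimum of 10.8.

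The low replicate value at such regions did not go with a small called region. Where 1 replicate of the counterpart was over the minimum, the median width called in the higher replicate was 1594 bp and in the lower replicate 1613.5 bp at gained peaks. It was 1453 bp and 1425 bp at lost peaks. At the strongest lost region on chr20 the treated replicates spanned 10079 bp and 8825 bp with values of 159 and 5.49. How peaks of 1 replicate that lie close together were joined into a single value is not given in the sources used here, and its part in these disagreements was not tested.

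The 268 gained peaks with no deposited untreated peak were narrow and weak, with a median width of 934.5 bp and a median lower replicate value of 12.8. Gained peaks as a whole had 1357 bp and 15.3, and kept treated peaks had 1592 bp and 22.1. The strongest lay at chr1:145254324-145254564, was 241 bp wide, had treated values of 31.7 and 35.8, and had no deposited peak in any other H3K27Ac list, in any IgG list, or in the RAD21 and PDS5A lists of Rescue cells. At chr12:19773029-19773618 the treated values were 40.6 and 31.0. Treated WT cells had a passing peak in that region too (31.0 and 38.3), treated KO cells had one over the limit (11.1 and 12.8), and the untreated cells of all 3 genotypes had none. The same order appeared at chr12:121476395-121477241, with 26.4 and 32.7 in treated Rescue cells, 12.6 and 22.1 in treated WT cells, 9.71 and 9.47 in treated KO cells, and no peak in any untreated list. These 2 regions are thus the named ones at which a peak was listed under osimertinib in every genotype and in no untreated list.

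At chr6:34522804-34524134 the treated values were 26.0 and 32.3, and no WT or KO list held an H3K27Ac peak there. RAD21 and PDS5A both had a passing peak in that region in treated Rescue cells and none deposited in untreated Rescue cells. At chr14:91624046-91625041 the treated values were 25.2 and 22.6, with no deposited peak for H3K27Ac in any other list, nor for RAD21, PDS5A or IgG in Rescue cells. On a deposited IgG peak of Rescue cells lay 0 of the 268 peaks, and a limit of 3 counts for a count of 0 allows a share of up to 1.12% (upper Wilson bound 1.41%).

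The 315 lost peaks with no deposited treated peak had a median width of 940 bp and a median lower value of 12.5 in untreated cells. Lost peaks as a whole had 1474 bp and 14.9, and kept untreated peaks had 1680.5 bp and 21.8. The strongest lay at chr1:115721200-115723944, 2745 bp wide, with 55.1 and 61.1 in untreated Rescue cells. It was passing in treated WT cells (20.7 and 35.3) and in treated KO cells (16.2 and 17.3), so it was listed under osimertinib in the other genotypes and not in Rescue cells. RAD21 had a passing peak there in untreated Rescue cells and none deposited in treated Rescue cells. PDS5A had a deposited peak there in untreated cells and none in treated cells.

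The other named regions of this kind were weaker. At chr17:17893046-17894551 the untreated values were 35.6 and 32.1, and treated WT cells had 35.2 and 32.8. At chr2:47084600-47087469 they were 30.1 and 25.2, and treated WT cells had 29.5 and 20.1. At chr2:46643610-46644866 they were 25.6 and 24.5, with no peak deposited in WT cells. At chr12:27487703-27489823 they were 35.7 and 24.5, and treated WT cells had 20.7 and 24.9. The chr2:47084600-47087469 region was also passing in untreated WT cells (44.4 and 23.1) and untreated KO cells (11.4 and 10.9). The chr17 region was passing in untreated KO cells (16.3 and 12.3). In untreated WT cells the chr17 and chr12 regions had a peak over the limit. Of the 5 named regions, 4 had a passing H3K27Ac peak in treated WT cells, while treated Rescue cells had none deposited. Over all 315 regions of this kind 52, or 16.5% (12.8 to 21.01%), were passing in treated WT cells, so the named ones do not stand for the rest.

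Strong peaks were kept more often than weak ones in both lists. When each list was split into deciles by the lower replicate value, 41.7% of the weakest decile of treated peaks and 87.4% of the strongest decile were kept. Of the untreated peaks 33.0% of the weakest decile and 81.9% of the strongest were kept, and the highest share, 83.6%, was in the decile 8 of 10. Of the 1300 peaks in the strongest treated decile, 1136 were kept and 0 lacked a deposited untreated peak. Of the 1418 in the strongest untreated decile, 1161 were kept and 1 lacked a deposited treated peak.

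**Figure D3:**
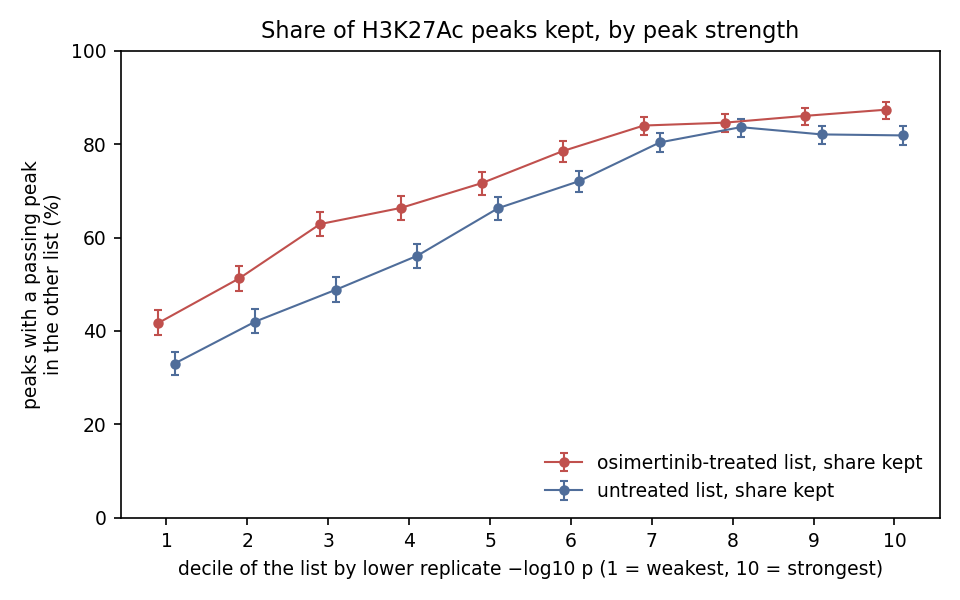
Share of passing H3K27Ac peaks that overlap a passing peak of the other list (vertical axis, percent, with 95% Wilson intervals), by decile of the list from weakest to strongest lower replicate −log10 p. Both lines climb over the first 7 deciles and level off between 80.4% and 87.4%, and the treated list lies above the untreated list in every decile. Over whole lists the kept counts are close (9282 treated and 9164 untreated), so the shorter treated list has the higher kept share. With lists of equal length 31.4% of treated peaks were gained and 32.4% of untreated peaks lost.

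Width gave a flatter pattern. Of treated peaks under 500 bp 44.3% were kept, of those from 1000 to 2000 bp 74.5%, and of the 461 of 4 kb or more 70.5% (66.2 to 74.5%). Of untreated peaks under 500 bp 37.1% were kept, from 1000 to 2000 bp 67.4%, and of the 567 of 4 kb or more 67.2% (63.2 to 70.9%). Broad peaks were therefore not kept more often than peaks of middle width, and 0 of them in either list lacked a deposited peak in the other.

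Kept peaks mostly covered the same place in both lists and were slightly narrower in treated cells. A single partner in each list was found for 8860 pairs, and 8855 of these overlapped by at least 50% of the shorter peak. The median ratio of treated to untreated width was 0.968, and the middle 90% of pairs ran from 0.585 to 1.41. The untreated peak was the wider in 5200 pairs and the treated peak in 3646. The widths called in the 2 replicates of 1 list had ratios from 0.715 to 1.59 in the treated list and 0.716 to 1.57 in the untreated list. Those are widths of single replicates, while the ratio between treatments is of joined peaks, so the 2 ranges are unlike measures. In 65 pairs the treated peak was at least 2 times as wide, and in 241 it was at most 50% as wide.

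The strongest kept treated peak lay at chr19:52692197-52694468, with 204 and 202 in treated cells and 81.8 and 108 in untreated cells. The next lay at chr2:70312803-70315990, with 202 and 184 in treated cells and 79.0 and 114 in untreated cells. At chr7:16459249-16462072 the values were 189 and 174 in treated cells and 139 and 138 in untreated cells. These values belong to their own lists and are given side by side without a comparison, since the scale of −log10 p moves with depth. The regions at chr10:47054637-47058753 (172 and 172 in treated cells, 161 and 162 in untreated cells) and chr10:32634858-32636644 (171 and 176 in treated cells, 117 and 114 in untreated cells) complete the 5 strongest. Of the 3 widest kept treated peaks, chosen for their width in that list, the one at chr8:145009377-145029136 was 19760 bp wide in treated cells and met 3 passing untreated peaks of 8687, 5232 and 1171 bp, which covered 76.4% of it. The one at chr20:43965130-43977502 was 12373 bp wide in treated cells and 12810 bp in untreated cells. The one at chr11:69453852-69466140 was 12289 bp wide in treated cells, and the passing untreated peak, of 4029 bp, overlapped it by 726 bp. Over every deposited untreated peak 78.2% of the chr11 region was covered, so the untreated list held most of each of the 3 regions. All 8 overlapped a deposited IgG peak of some genotype, as did 16 of the 28 named peaks, and 9 of the 28 overlapped one of Rescue cells. Over all passing peaks 39.6% of the treated and 37.3% of the untreated list overlapped an IgG peak of some genotype, and 8.99% and 8.27% one of Rescue cells.

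Most domains of neighbouring peaks had a match in the other list. Peaks within 12.5 kb of each other were joined, which gave 9950 domains in treated cells and 10666 in untreated cells. Of these, 77.4% of the treated and 71.9% of the untreated domains overlapped a domain of the other list. Of the domains with 5 or more peaks, 123 of 123 in treated cells and 118 of 119 in untreated cells did so, where a match by any 1 of several peaks is likely from the share of kept peaks alone. Gained peaks lay within 12.5 kb of a kept peak in 30.8% of cases (29.4 to 32.3%) and lost peaks in 31.0%. Kept peaks lay that near another kept peak in 28.5% of cases in the treated list and 26.997% in the untreated list. Changed peaks with no deposited peak in the other list lay that near in 23.9% of cases for the gained (19.2 to 29.3%) and 24.4% for the lost ones (20.0 to 29.5%), lower shares whose intervals reach those of kept peaks. The median gap to a kept peak was 38.3 kb for such gained peaks and 33.3 kb for kept treated peaks, and 56.3 kb for such lost peaks and 34.7 kb for kept untreated peaks.

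Cohesin occupied kept H3K27Ac peaks more often than changed ones. A passing RAD21 peak of treated Rescue cells lay on 45.2% of kept treated peaks and 24.6% of gained peaks (23.2 to 26.0%). A passing RAD21 peak of untreated Rescue cells lay on 36.0% of kept untreated peaks and 16.996% of lost peaks (15.98 to 18.1%). PDS5A had the same order, with 38.6% of kept treated peaks and 19.5% of gained peaks in treated cells, and 41.9% of kept untreated peaks and 20.8% of lost peaks in untreated cells. Peaks on cohesin were also the stronger ones, with a median lower replicate value of 25.3 on RAD21 and 17.1 off it in the treated list, and the part of strength in these shares was not tested. Read the other way, 82.2% of treated peaks on RAD21 were kept and 64.5% of those off it, and 79.5% and 58.5% of untreated peaks.

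At lost H3K27Ac peaks the ratio of treated to untreated overlaps with RAD21 or PDS5A was close to the ratio of the whole lists, and at gained and kept peaks it was higher. The RAD21 list was longer in treated cells, at 10864 passing peaks against 8993 in untreated cells, a ratio of 1.21. The PDS5A list was shorter, at 11243 in treated cells against 13746 in untreated cells, a ratio of 0.818. At gained peaks RAD21 was present in 911 in treated cells and 647 in untreated cells, a ratio of 1.41, and at lost peaks in 1008 and 852, a ratio of 1.18. At kept treated peaks the ratio was 1.27. PDS5A had ratios of 0.933 at gained peaks, 0.793 at lost peaks and 0.933 at kept treated peaks. For both proteins the ratio at lost peaks was below the one at gained peaks. Of the 268 gained peaks with no untreated peak, RAD21 lay on 16 in treated cells and 10 in untreated cells, and PDS5A on 21 and 12. Of the 315 lost peaks with no treated peak, RAD21 lay on 21 in treated cells and 24 in untreated cells, a ratio of 0.875 that lies on the other side of 1, and PDS5A on 16 and 27. These counts are small, and the differences were not tested.

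Changed peaks were passing in fewer H3K27Ac lists of WT and KO cells than kept ones. Of kept treated peaks 21.3% were passing in 0 of the 4 H3K27Ac lists of WT and KO cells, against 52.6% of gained peaks and 87.3% of the 268 gained peaks with no untreated peak. Of kept untreated peaks 20.98% were in 0 of the 4 lists, against 54.0% of lost peaks. The more of the 4 lists a treated peak was in, the more often it was kept, at 50.3%, 70.5%, 81.6%, 87.3% and 90.1% for 0 to 4 lists. Gained peaks were also weaker than kept treated ones, with a median lower replicate value of 15.3 against 22.1. The part of strength in these shares was not tested. Without the limit, 95.4% of gained peaks and 97.2% of lost peaks lay on a deposited peak of some WT or KO list. These shares were slightly below the 98.5% of all treated and 98.9% of all untreated peaks.

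A gained peak was about equally often listed in treated WT cells and in treated KO cells, at 27.2% (25.8 to 28.7%) and 27.4% (26.0 to 28.9%), although the treated WT list held 10077 passing peaks and the treated KO list 8383. In the untreated lists the shares were 15.2% in WT cells and 15.9% in KO cells. Kept treated peaks were in treated WT cells in 50.5% of cases and in treated KO cells in 57.3%. Of the gained peaks with no untreated peak, 10.4% were passing in treated WT cells and 4.10% in treated KO cells. In the untreated WT and KO lists 0 of those 268 peaks were passing.

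The direction of the H3K27Ac peak count under osimertinib differed between the genotypes at the IDR limit. Rescue cells had a ratio of 0.916, while KO cells had 8383 treated and 5420 untreated peaks, a ratio of 1.55, and WT cells had 10077 and 5045, a ratio of 1.997. The untreated Rescue list was itself longer than any WT or KO list. Gained peaks made up 54.9% of treated KO peaks and 68.4% of treated WT peaks. With each pair of lists shortened to equal length by strength, gained peaks were 31.4% in Rescue cells, 42.8% in KO cells and 56.4% in WT cells. The shortened lists held 12991 peaks each in Rescue cells, 5420 in KO cells and 5045 in WT cells. Their length was thus equal within a genotype and still differed between genotypes. Rescue cells had the smallest share of gained peaks of the 3 genotypes both ways, a comparison of single lists that was not tested. The share of untreated peaks lost had another order, at 29.9% in KO cells, 35.4% in Rescue cells and 36.9% in WT cells.

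A minority of gained Rescue peaks overlapped a peak gained in WT or in KO cells, with no share over kept peaks to set beside it. Of the gained Rescue peaks 671 overlapped a peak gained in WT cells (18.1% of the Rescue and 9.63% of the WT gained peaks) and 656 one gained in KO cells (17.7% and 14.3%). Both held for 187, or 5.04%. A peak lost in WT cells was overlapped by 237 gained Rescue peaks (6.39% of the Rescue gained and 12.8% of the WT lost peaks). A peak lost in KO cells was overlapped by 238 of them (6.42% and 14.8%). As a share of the other genotype's peaks, the overlap of Rescue gains with losses was thus larger than with gains in WT cells. In KO cells these shares were close, at 14.8% (13.2 to 16.6%) with losses and 14.3% (13.4 to 15.4%) with gains. Of the lost Rescue peaks, 983 overlapped a peak gained in WT cells (19.6% of the Rescue lost and 14.2% of the WT gained peaks) and 734 one gained in KO cells (14.6% and 16.1%). A peak lost in WT cells was overlapped by 305 (6.08% of the Rescue lost and 16.4% of the WT lost peaks), and one lost in KO cells by 317 (6.32% and 19.7%). Lost peaks made up 36.9% of untreated WT peaks and 29.9% of untreated KO peaks. As a share of the Rescue lost peaks the overlap with gains in the other genotypes was the larger, and as a share of the other genotype's peaks the overlap with its losses was, since the WT and KO lists hold more gained than lost peaks.

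Chromosome 21 was the only chromosome with more passing H3K27Ac peaks in treated Rescue cells. It held 114 treated and 88 untreated peaks, a ratio of 1.295 (95% interval 0.982 to 1.71 for counting error), and it is singled out after its value was seen. The other chromosomes ran from 0.789 on chromosome 18 (142 treated and 180 untreated peaks) to 0.995 on chromosome 1. Gained peaks made up 46.5% of treated peaks on chromosome 21 (37.6 to 55.6%), and over the 22 chromosomes the median share was 28.2%. RAD21 stood out on the same chromosome, with 87 treated and 40 untreated passing peaks, a ratio of 2.175, and the median over chromosomes was 1.19. PDS5A had 81 and 72, a ratio of 1.125, its only one over 1. Over every deposited H3K27Ac peak chromosome 21 had a ratio of 1.18, and the median over chromosomes was 1.13, so it no longer stood apart there.

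Over every deposited peak, 19 of 22 chromosomes had more treated than untreated H3K27Ac peaks. The ratio was highest on chromosome 20 at 1.2999, with 2271 treated and 1747 untreated peaks, on chromosome 22 at 1.297 and on chromosome 19 at 1.28. It was lowest on chromosome 18 at 0.858, with 497 treated and 579 untreated peaks, and was 0.979 on chromosome 4. Across the 22 chromosomes this ratio ranked much as that of RAD21 (Spearman rho 0.862) and of PDS5A (0.927). These correlations describe chromosomes that share libraries and differ in gene content, and they carry no test.

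**Figure D4:**
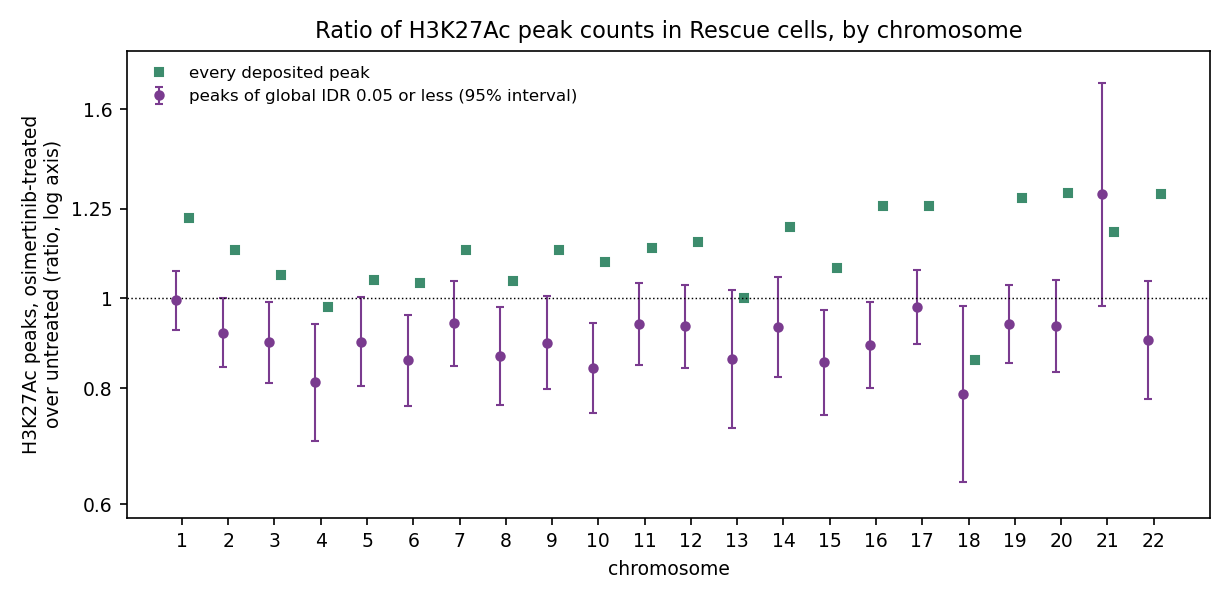
Ratio of H3K27Ac peaks in osimertinib-treated over untreated Rescue cells (vertical log axis) for each chromosome, at the IDR limit with its 95% counting interval and over every deposited peak. The ratios at the limit lie below 1 except on chromosome 21 (1.295), while 19 of 22 ratios over every deposited peak lie above 1.

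The ratio also moved with local peak density. Every deposited peak was counted in 5 Mb windows, and 507 windows with 20 or more peaks were kept. After division by the length of each list, with 2 peaks added to each count, 1 window was at least 1.5-fold higher in treated cells (0.197% of windows) and 38 were at least 1.5-fold lower (7.50%). In the quartile of windows with the fewest peaks there were 2387 treated and 2662 untreated peaks, a ratio of 0.897. The next quartiles had 1.01 and 1.10, and the quartile with the most peaks had 25595 treated and 20564 untreated peaks, a ratio of 1.24. Of the windows past 1.5-fold lower, 26 were in the sparsest quartile and 0 in the densest. Windows of the sparsest quartile held 20 to 60 peaks and those of the densest 213 to 931. Counting error alone thus carries sparse windows past 1.5-fold more easily. The quartiles were formed from the same treated and untreated counts that give the ratio.

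The cohesin lists of Rescue cells had the same order over these windows. RAD21 had ratios of 0.944, 0.976, 1.03 and 1.13 for treated over untreated deposited peaks, sparsest quartile to densest, and PDS5A had 0.661, 0.732, 0.788 and 0.885. IgG, with few peaks, had 0.648, 0.725, 0.927 and 0.890, so the background lists moved in the same direction, and the part of background or depth in the H3K27Ac pattern was not tested. At the IDR limit the H3K27Ac ratios were 0.812, 0.887, 0.912 and 0.940. In KO cells they were 1.62, 1.73, 1.73 and 1.61 over every deposited peak, and in WT cells 2.72, 2.302, 2.18 and 1.66. The order in WT cells ran the opposite way to that in Rescue cells.

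**Figure D5:**
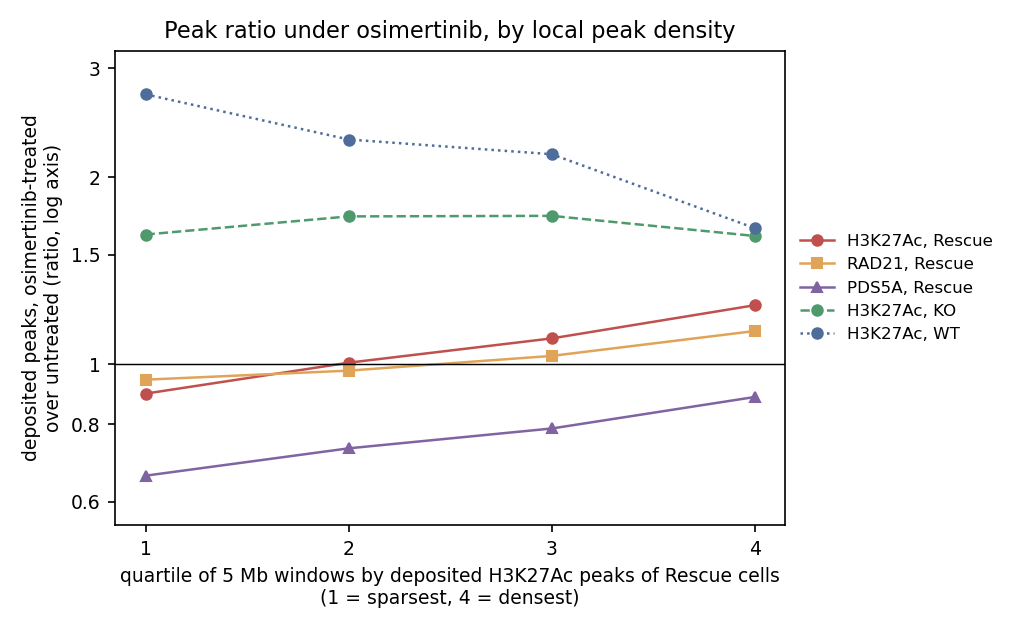
Ratio of deposited peaks in osimertinib-treated over untreated cells (vertical log axis) in quartiles of 5 Mb windows, from the sparsest to the densest in deposited H3K27Ac peaks of Rescue cells. The 3 Rescue lines climb to the right (H3K27Ac from 0.897 in the sparsest to 1.24 in the densest quartile), the KO line stays between 1.61 and 1.73, and the WT line descends.

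The largest rise among the 5 Mb windows was at the end of the long arm of chromosome 20. Between 60 and 65 Mb there were 228 treated and 123 untreated deposited H3K27Ac peaks, a log2 ratio of shares of 0.68. RAD21 had 108 treated and 78 untreated peaks there, and PDS5A had 98 and 92. At the IDR limit the window held 58 treated and 47 untreated H3K27Ac peaks, so most of the difference lay in peaks over the limit. In KO cells the window held 182 treated and 162 untreated deposited peaks, and in WT cells 101 and 94. Behind it came chromosome 14 at 105 to 110 Mb (68 treated and 39 untreated), chromosome 2 at 240 to 245 Mb (104 and 61) and chromosome 8 at 140 to 145 Mb (165 and 98), with log2 ratios of 0.57, 0.55 and 0.54.

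The largest falls were in sparse windows. Chromosome 7 at 80 to 85 Mb held 10 treated and 27 untreated deposited peaks, a log2 ratio of -1.47. In that window WT cells had 57 treated and 8 untreated peaks, and KO cells had 10 and 4. Chromosome 6 at 55 to 60 Mb held 11 treated and 23 untreated peaks in Rescue cells (-1.14) and 68 treated and 8 untreated peaks in WT cells. Chromosome 8 at 55 to 60 Mb held 15 and 29 (-1.07), and chromosome 4 at 10 to 15 Mb held 15 and 26 (-0.92). In all 4 windows WT cells had more treated than untreated deposited peaks, as they did in 492 of the 507 windows (97.0%).

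At the IDR limit, 1 Mb windows changed by small numbers of peaks. The largest rises in the share of the list were on chromosome 14 at 65 to 66 Mb and chromosome 20 at 61 to 62 Mb, each with 22 treated and 14 untreated peaks. Chromosome 17 at 4 to 5 Mb followed with 32 and 25, then chromosome 7 at 47 to 48 Mb and chromosome 17 at 80 to 81 Mb, each with 21 and 13. The largest falls were on chromosome 22 at 36 to 37 Mb, with 14 treated and 25 untreated peaks, and at 46 to 47 Mb, with 18 and 29. Chromosome 13 at 45 to 46 Mb had 9 and 19, chromosome 8 at 102 to 103 Mb 14 and 24, and chromosome 7 at 129 to 130 Mb 5 and 14. Over every deposited peak the rises in share were smaller, at 0.022 to 0.063 percentage points against 0.070 to 0.071 at the limit. The falls in share were smaller too or turned round. The chromosome 22 windows held 61 treated and 62 untreated deposited peaks at 36 to 37 Mb and 99 and 82 at 46 to 47 Mb. The chromosome 8 window held 68 and 69, the chromosome 7 window 27 and 29, and the chromosome 13 window 28 and 39. Near-equal counts here still mean a lower treated share, since the treated list held more deposited peaks (44401 against 38691). At 36 to 37 Mb on chromosome 22 WT cells had 22 treated and 3 untreated passing peaks, and KO cells 10 and 2, where both genotypes had longer treated than untreated lists over all chromosomes.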

How the data were processed

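CUT&RUN libraries of Rescue, KO and WT PC9 cells were analysed as 24 peak lists, each joining 2 replicates of 1 antibody and treatment. MACS2 2.2.7.1, Bowtie2 2.4.2 and bedtools 2.30 are named in the submitters' processing notes, beside SAMtools 1.16, deepTools 3.5.1, FastQC and Trimmomatic, and the build is GRCh37. The peak calling control, the IDR settings and read totals are not given in the sources used here. The deposited values, made by the authors, are the −log10 global IDR of a peak and the −log10 p of each replicate, used only to rank or limit peaks within a list. The 12 H2A samples were not used here.

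Peaks of global IDR 0.05 or less on chromosomes 1 to 22 were matched between lists where they shared at least 1 bp, and shares carry Wilson 95% binomial intervals. The length of a list depends on depth and on replicate agreement, so both enter every count. Named were the 5 strongest peaks of each class by the lower replicate value, the 3 widest kept peaks, and windows ranked by change in share. Members, lists and rules were chosen with earlier results of these data known. No GRCh37 annotation was used, so promoter shares and gene lists were not computed. Lists were handled with pandas 2.3.3 and numpy 2.4.6 in Python 3.11.15, intervals came from scipy 1.17.1 and plots from matplotlib 3.10.9. The overlap code was tested on simulated data.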

Additional observations from a re-analysis of the deposited data

Results flagged for a closer look

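The H3K27Ac peak count under osimertinib moved in opposite directions in the genotypes at the IDR limit. The ratio of treated to untreated peaks was 0.916 in Rescue cells, 1.55 in KO cells and 1.997 in WT cells. The difference was not tested, since each condition has 1 list, and over every deposited peak the ratio in Rescue cells was 1.15.

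In the sparsest quartile of 5 Mb windows the ratio of treated to untreated deposited H3K27Ac peaks was 0.897 in Rescue cells, 1.62 in KO cells and 2.72 in WT cells. That difference was not tested either.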

How the results depend on the processing

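Over every deposited peak the ratio of treated to untreated peak counts reversed to 1.15, that of covered length reversed to 1.04, and the change in share of the chromosome 22 window at 46 to 47 Mb reversed to 0.011 percentage points; the cause was not tested. There the share of untreated peaks lost was 21.3%, median widths were 598 bp (gained), 604 bp (lost) and 1194 bp (kept), gained peaks lay on RAD21 in 3.33%, on PDS5A in 3.53%, in treated WT in 3.01% and in treated KO lists in 0.951%, and lost peaks on RAD21 in 3.49% and on PDS5A in 4.61%. Shares with no deposited peak are complete there by construction.

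At a global IDR of 0.01 the count ratio was 0.975, the covered ratio 0.904, lost 36.4%, gained 34.2%, and 0.821% of lost and 1.21% of gained peaks had no deposited peak. Median widths were 1666 bp (gained), 1905 bp (lost) and 1786 bp (kept). Gained peaks lay on RAD21 in 39.9%, PDS5A in 32.8%, treated WT in 43.7% and treated KO lists in 49.2%, and lost peaks on RAD21 in 27.6% and PDS5A in 31.4%.

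Without peaks on IgG peaks of Rescue cells, lost was 37.2%, gained 30.0%, kept width 1557 bp, gained peaks on RAD21 22.4%, on PDS5A 17.5% and in treated WT 25.7%, and lost peaks on RAD21 15.5% and on PDS5A 19.1%. With lists of equal length the count ratio is 1 by construction, the covered ratio was 0.92, lost 32.4%, gained 31.4%, lost with no treated peak 4.68%, widths 1570 bp (lost) and 1613.5 bp (kept), and lost peaks on RAD21 18.7% and on PDS5A 22.7%.

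A limit of 10 on the lower replicate value within the IDR limit removed no peak. In place of the IDR limit, an alternative chosen after seeing the data, it gave a count ratio of 0.973, covered ratio 0.916, lost 30.7%, gained 27.6%, no deposited peak for 9.73% of lost and 11.3% of gained peaks, and widths of 1238 bp (gained), 1375 bp (lost) and 1556 bp (kept). Gained peaks lay on RAD21 in 19.6%, PDS5A in 16.4%, treated WT in 22.6% and treated KO in 21.1%, and lost peaks on RAD21 in 14.7% and PDS5A in 17.9%.

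With an overlap of 50% of the shorter peak all 15 values stayed within their 95% interval. With the boundaries of a single replicate, median widths ran from 1171 to 1223 bp (gained), 1264 to 1335 bp (lost) and 1418 to 1486 bp (kept), a span of 1 replicate in place of 2, and the other 12 values stayed within their interval. In windows of 0.5 and 5 Mb and without IgG peaks all 10 named windows of 1 Mb kept their direction. No paired analysis was possible because the columns of a list do not name which replicate of the labels they hold and no result comes from a test over replicates. Depth is unknown, and both depth and replicate agreement set the length of a list.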

Other observations

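Peaks on a deposited IgG peak of Rescue cells were kept more often than the rest. Of 1168 such treated peaks 84.2% (82.0 to 86.1%) were kept, and of the 11823 others 70.2%. Of 1172 such untreated peaks 83.6% were kept, and of the 13005 others 62.9%. They were also stronger, with a median lower replicate value of 30.9 against 18.9 in the treated list. They made up 10.6% of kept treated peaks and 4.99% of gained peaks, and 10.7% of kept untreated peaks and 3.83% of lost peaks.

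On chromosome 21 the treated list held more passing H3K27Ac peaks in 5 of 6 windows of 5 Mb. At 40 to 45 Mb there were 37 treated and 30 untreated peaks, and at 45 to 50 Mb 21 and 13. RAD21 had 28 treated and 11 untreated passing peaks at 40 to 45 Mb. WT cells had 17 and 8 H3K27Ac peaks in that window, and KO cells 13 and 10.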
